A study of Mus musculus with 288 samples.

Results

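Nicotinamide adenine dinucleotide (NAD) metabolism and the sirtuins are described here through 10 genes of the 35904 in the deposited tables. The genes were taken by name: Nampt, Nmnat1, Nmrk1, Nnmt, Cd38, Parp1, Sirt1, Sirt3, Sirt5 and Sirt6. All 10 were present in every table, and no library held a 0 for any of them. RNA was measured in the cerebellum, heart, kidney, liver, lung and skeletal muscle of wild-type male C57BL/6J mice, an inbred laboratory strain. From 8 weeks of age the mice had spent 7 days in normoxia (21% oxygen) or in intermittent hypoxia (IH), in which the inhaled oxygen fell repeatedly to 8% and returned to 21%. The mice of both groups were then kept in normoxic constant darkness, and tissues were taken on the second day of darkness at 8 time points 3 hours apart. Each of the 12 combinations of tissue and treatment therefore holds 24 libraries, 3 at each time point, so the IH libraries show tissue after a return to room air and not tissue during hypoxia. Values are TPM, which give the transcripts of a gene, corrected for length, relative to the total of the library. They keep no record of sequencing depth, so the depth of each single library cannot be read from them.

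NAD carries electrons in energy metabolism and is also consumed as a substrate. Cells rebuild it from nicotinamide through Nampt, the rate-limiting enzyme of the salvage route, and Nmnat1, which adds the adenylate group in the nucleus; Nmrk1 starts a separate route from nicotinamide riboside. Nnmt methylates nicotinamide and so removes it from salvage. Cd38 is a membrane glycohydrolase that degrades NAD, and Parp1 uses NAD to build ADP-ribose chains at damaged DNA. The sirtuins are NAD-dependent deacylases: Sirt1 and Sirt6 act in the nucleus, while Sirt3 and Sirt5 act in mitochondria. The circadian clock, a feedback loop in which the Clock and Bmal1 (Arntl) proteins bind E-box sequences in DNA, is known to drive the transcription of Nampt.

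The promoters of Nampt, Nmrk1 and Sirt1 are shown because Nampt and Nmrk1 carried most of the rhythms described below and Sirt1 holds E-boxes. RefSeq (GRCm38.p6) promoter windows were found for 9 of the 10 genes, and the 250 bases before each start site were searched on both strands. The motifs were the E-box CACGTG, the related CACGTT, the hypoxia response core ACGTG (which overlaps every E-box), the D-box TTANNTAA and AGGTCA. The last is only part of a ROR element, and the full element was not searched for. In that order, the motifs were present in 6.02%, 3.85%, 16.6%, 5.43% and 14% of 32851 promoter windows of that length. Matches are in capitals, and stretches that overlap an annotated exon were left out. The Nampt window lies at chr12:32820085-32820334 on the plus strand and lies inside an intron of a longer annotated transcript, the Nmrk1 stretch at chr19:18631824-18631949 on the plus strand and the Sirt1 stretch at chr10:63339051-63339285 on the minus strand.

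Nampt: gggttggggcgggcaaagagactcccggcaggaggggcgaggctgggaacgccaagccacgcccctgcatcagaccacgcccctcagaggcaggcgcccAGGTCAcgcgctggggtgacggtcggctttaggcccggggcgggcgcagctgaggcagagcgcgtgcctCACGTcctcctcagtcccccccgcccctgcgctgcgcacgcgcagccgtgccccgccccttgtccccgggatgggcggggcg

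Nmrk1: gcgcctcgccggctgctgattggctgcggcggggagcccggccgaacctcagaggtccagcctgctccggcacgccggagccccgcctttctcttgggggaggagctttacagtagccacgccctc

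Sirt1: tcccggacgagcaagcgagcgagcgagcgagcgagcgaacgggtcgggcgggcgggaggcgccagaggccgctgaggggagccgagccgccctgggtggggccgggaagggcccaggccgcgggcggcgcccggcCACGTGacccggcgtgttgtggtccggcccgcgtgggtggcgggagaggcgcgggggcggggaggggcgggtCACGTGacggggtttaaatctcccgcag

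The Nampt window held 1 hypoxia response core, 82 bases before the start, and 1 AGGTCA match, 151 bases before it, and no E-box. The Nmrk1 window held no match to any of the motifs. The Sirt1 window held 2 E-boxes, 115 and 43 bases before the start and the Parp1 window held 1. Sirt5 held AGGTCA at 2 positions. Across the 9 genes with a window, the E-box was present in 2, the hypoxia response core in 5 and the D-box in 0. A match describes these letters in this window, and its absence says nothing about binding elsewhere.

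Markers of the labelled tissue were present in every group, and the markers of 2 libraries, looked at singly, went against their labels. In the liver IH library of replicate 2 at 13:30, the liver markers (Alb, Apoa1, Serpina1a, Cyp2e1) summed to 944 TPM, against at least 15650 TPM in the other 23 liver IH libraries, while heart markers (Myh6, Nppa, Actc1, Tnni3) summed to 4751 TPM, against at most 31.3 TPM in the others. In the cerebellum IH library of replicate 3 at 1:30, cerebellar markers (Pcp2, Calb1, Gabra6, Zic1) summed to 278 TPM, against at least 987 TPM in the others, and heart markers to 5214 TPM, against 23.1 to 3101 TPM in the others. Where a call of a member changed without these 2 libraries, the result without them is given. The 14 changes and 13 rhythms of the members that passed with every library also passed without these 2 (limma). Markers of another tissue reached high sums in other groups too. Muscle markers (Acta1, Ckm, Myh4, Tnnt3) reached 4265 TPM in a normoxia cerebellum library, against a group median of 77.8 TPM. Lung markers (Sftpc, Sftpb, Scgb1a1, Ager) reached 1988 TPM in a normoxia heart library, against a group median of 0.986 TPM. Those libraries stayed in the fits. Replicate numbers also differed in how genes changed: across genes, the changes in replicates 1 and 2 correlated with r = 0.823 in the liver and 0.842 in the cerebellum, whereas those in replicates 1 and 3 gave -0.112 and -0.28 (genes are not independent replicates). In the lung the same pairs gave 0.871 and 0.233. The change within each replicate number is therefore given beside the pooled one.

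The members differed in mean level between tissues in most pairs. On the log2(TPM + 0.5) scale, after each library was scaled by the median ratio to all the normoxia libraries, 132 of the 150 member and tissue-pair differences passed an adjusted p of 0.05 (limma moderated test, Benjamini-Hochberg over every gene and pair), against 82.3% of all gene and pair combinations. The scaling itself shifted tissues, with mean factors from 0.593 in the liver to 1.68 in the lung, so the orders below are in TPM as deposited, and the highest or lowest tissue in scaled TPM is named where it differs.

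**Figure D1:**
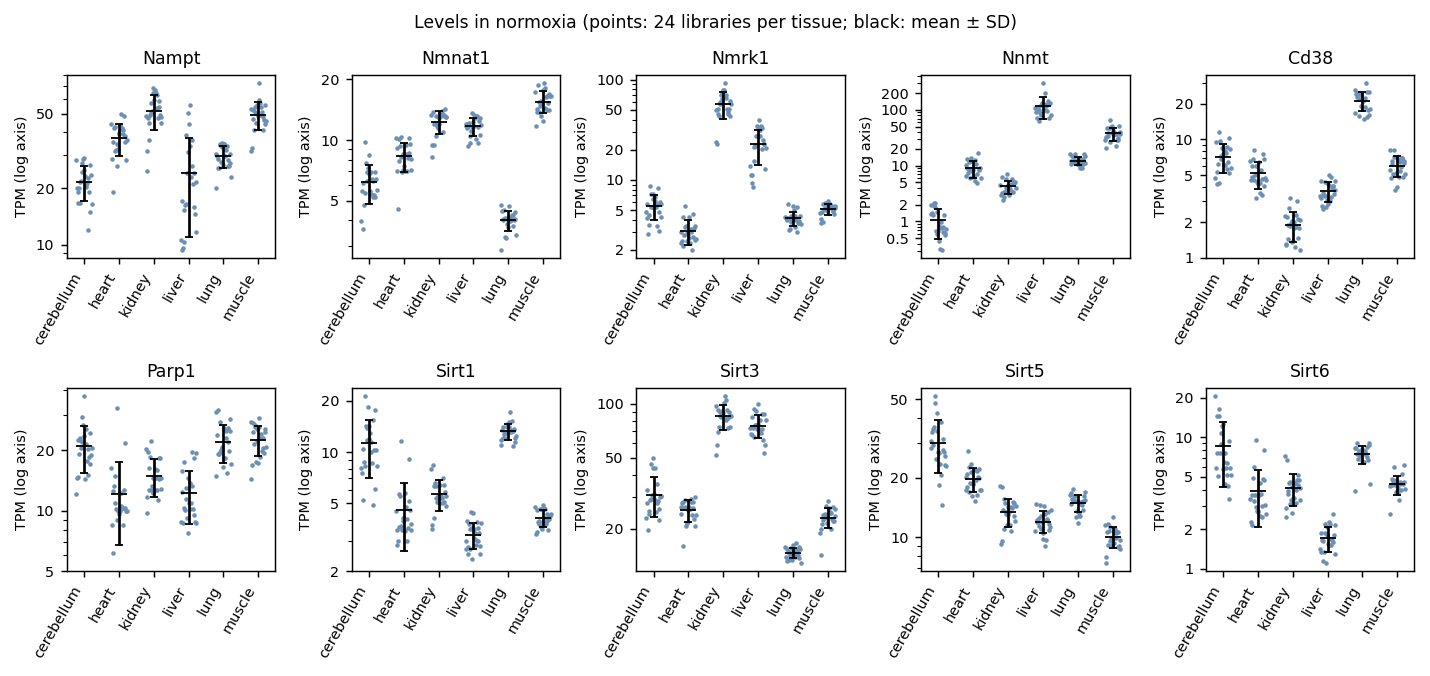
Levels of the 10 genes in the normoxia libraries of the 6 tissues; the vertical axis is TPM as deposited on a log scale, points are the 24 libraries of a tissue and black bars the mean ± SD. Nmrk1 and Sirt3 sit highest in the kidney and liver, Nnmt in the liver, and Cd38 in the lung.

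Among the enzymes that make NAD, Nampt (chr12:32819545-32853349) stood at 52.0 ± 11.1 TPM in the kidney (mean ± SD, n = 24 here and for the levels that follow), 49.4 ± 8.58 in muscle, 37.1 ± 7.17 in the heart, 29.6 ± 4.06 in lung, 24.0 ± 13.1 in liver and 21.6 ± 4.51 in cerebellum. As deposited, the difference between kidney and muscle did not pass (adjusted p = 0.657, limma), nor did that between liver and cerebellum (adjusted p = 0.959). After scaling, muscle (54.0), heart (51.4) and kidney (50.2 scaled TPM) led, and the differences between neighbours did not pass (adjusted p = 0.376 and 0.848, limma). The liver then lay above the lung, at 39.9 against 17.6 scaled TPM (adjusted p = 1.83e-17), and above the cerebellum, at 15.8 (adjusted p = 2.37e-21). Nmnat1 (chr4:149467572-149485202) ranged from 15.5 ± 1.95 TPM in muscle to 4.00 ± 0.451 in the lung, and in scaled TPM the liver was highest.

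Nmrk1 (chr19:18631950-18652428) showed a wider spread across tissues. Its level was 57.9 ± 17.1 TPM in the kidney and 22.8 ± 8.90 in the liver, while the other four tissues lay between 3.095 ± 0.844 in the heart and 5.47 ± 1.53 in the cerebellum. In scaled TPM the lung was lowest, at 2.47. Kidney and liver led in both scalings, and each step from kidney to liver and from liver to the next tissue passed (adjusted p = 3.34e-23 and 6.52e-35 on TPM as deposited, limma).

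Nnmt (chr9:48591877-48605153), the nicotinamide methyltransferase, was at 119 ± 49.9 TPM in the liver, 38.1 ± 10.3 in muscle, 12.4 ± 2.17 in the lung, 9.08 ± 3.06 in the heart, 4.25 ± 1.16 in the kidney and 1.08 ± 0.591 in the cerebellum. Every neighbouring pair in this order passed, with the smallest step, lung above heart, at an adjusted p of 0.000158 (limma); that step turned in scaled TPM, with the heart at 12.6 and the lung at 7.38. Nnmt is also expressed by fat cells. The adipocyte markers Adipoq, Plin1, Cidec and Ucp1 summed to a median of 833 TPM in the normoxia muscle libraries, against 4.01 TPM in the normoxia liver libraries. Their part in the muscle level of Nnmt was not tested.

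Of the NAD consumers, Cd38 (chr5:43868553-43912375) was highest in the lung, at 21.3 ± 4.04 TPM, and lowest in the kidney, at 1.90 ± 0.541 TPM, in both scalings. The lung passed against the next tissue (adjusted p = 1.31e-36, limma). In bulk tissue a larger number of cells of a type and more RNA per cell cannot be told apart. Parp1 (chr1:180568924-180601254) ran from 22.6 ± 3.91 TPM in muscle to 12.1 ± 5.30 in the heart. As deposited, neither end passed against its neighbour (muscle and lung adjusted p = 0.697, liver and heart 0.696, limma). The lung came next to muscle as deposited, at 22.0 TPM, but was lowest in scaled TPM, at 13.0, so this order depends on the scaling.

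Among the sirtuins, the nuclear Sirt1 (chr10:63319005-63381704) was at 13.2 ± 1.43 TPM in the lung and 11.2 ± 4.17 in the cerebellum, and at 3.28 ± 0.582 in the liver. In scaled TPM the difference between cerebellum and lung did not pass (adjusted p = 0.956, limma), and muscle was lowest, at 4.51. The mitochondrial Sirt3 (chr7:140863666-140882309) was at 84.9 ± 13.3 TPM in the kidney and 75.4 ± 11.3 in the liver, and was lowest in the lung, at 14.7 ± 1.01. The kidney led in TPM as deposited (adjusted p = 0.016) and the liver in scaled TPM (adjusted p = 2.01e-19, limma), so the order of this pair depends on the scaling. Sirt5 (chr13:43365496-43395203) ranged from 30.2 ± 8.91 TPM in the cerebellum to 10.0 ± 1.22 in muscle. In scaled TPM the heart was highest, at 27.2 against 22.2 in the cerebellum (adjusted p = 4.96e-06, limma), and the lung lowest, at 8.92. Sirt6 (chr10:81621785-81627797) ranged from 8.62 ± 4.45 TPM in the cerebellum to 1.72 ± 0.378 in the liver, which was lowest in both scalings. As deposited, the cerebellum did not pass against the lung (adjusted p = 0.558, limma).

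To ask whether 7 days of IH left a change in mean 24-hour expression, the 24 IH and 24 normoxia libraries of each tissue were compared on log2(TPM + 0.5) after scaling by the median of ratios, with limma and Benjamini-Hochberg adjustment over every gene whose mean in that tissue reached 1 TPM. Of the 60 member and tissue comparisons, 14 passed an adjusted p of 0.05. The lung held 7 of them, against a background of 70.4% of all genes tested in the lung. The heart held 2 (background 45.2%), the liver 2 (24.2%), the kidney 2 (19.8%), the cerebellum 1 (15%) and muscle 0 (10.4%). With 10 genes a tissue, these shares lie near or below the background.

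With every library in the fit, no member passed the adjusted p together with a 1.5-fold change in any tissue. Nnmt in the liver passed both once the liver IH library with heart markers was left out, as given below. Of all genes tested, 9.09% passed both as higher and 4.39% as lower in the lung. Those shares were 1.1% and 2.55% for liver, 1.1% and 1.85% for heart, 1.48% and 1.16% for cerebellum, 0.411% and 0.372% for kidney, and 0.25% and 0.125% for muscle. The largest fitted changes were below that size, at 1.47-fold for Nnmt in the liver, which did not pass the adjusted p, and 1.46-fold for Sirt6 in the lung. On TPM as deposited, 3 comparisons passed both criteria, those of Nmrk1, Sirt5 and Sirt6 in the lung.

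**Figure D2:**
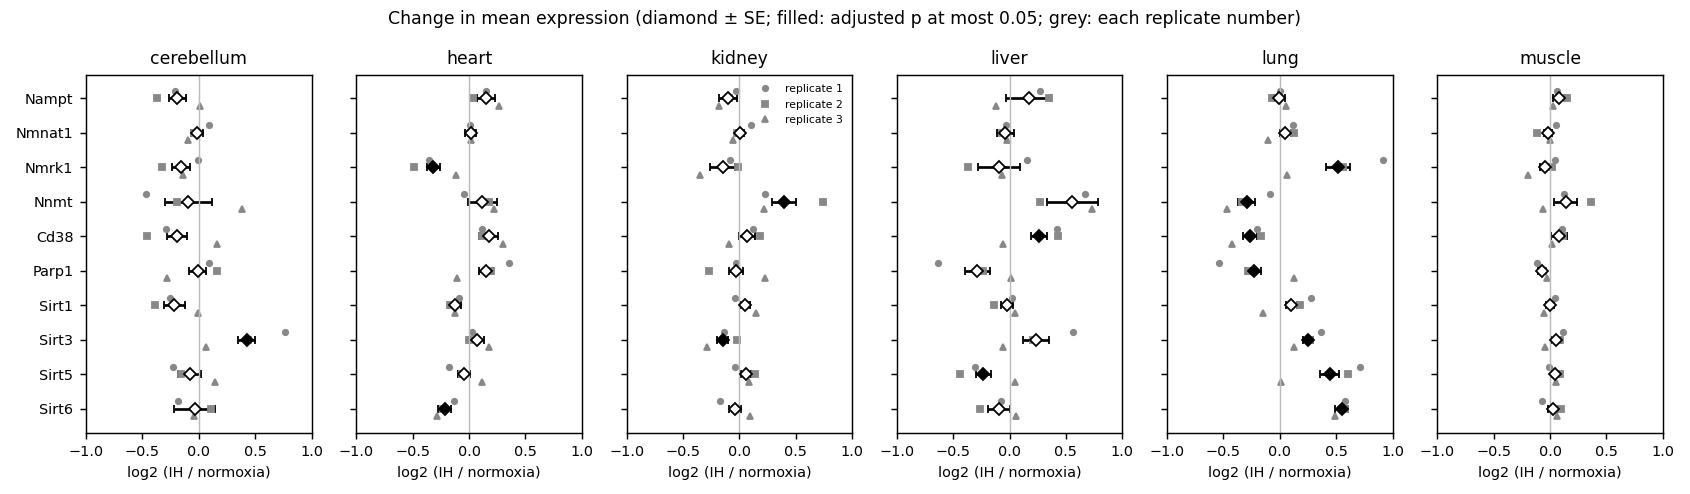
Change in mean 24-hour expression after IH for the 10 genes in each tissue; the horizontal axis is the fitted log2 ratio of IH to normoxia, diamonds with bars are the estimate ± SE over 48 libraries (filled where the adjusted p was at most 0.05) and grey symbols the change within each replicate number. In the lung, the grey symbols of Nmrk1 run from 0.06 to 0.92, whereas those of Sirt6 lie between 0.49 and 0.58.

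In the lung, 3 sirtuins and the riboside kinase rose. Sirt6, a nuclear deacylase of chromatin and DNA repair, ran from 3.93 TPM through a median of 7.72 to 9.02 TPM in normoxia, and from 9.44 through 13.0 to 24.6 TPM after IH. The 2 groups did not overlap, and Sirt6 in the lung was the only one of the 60 comparisons of which that was true, in TPM and in scaled values. Of all lung genes tested, 2.39% did not overlap in TPM and 2.54% in scaled values. In TPM the share was 0.0313% in the heart, 0.0078% in muscle, and 0% in the cerebellum, 0% in the kidney and 0% in the liver. The fitted change was 0.55 ± 0.06 on the log2 scale (SE, 24 libraries a group, adjusted p = 2.75e-11, limma), higher at 8 of 8 time points, and 0.58, 0.58 and 0.49 within replicates 1, 2 and 3.

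Nmrk1 in the lung ran from 3.03 through 4.07 to 5.72 TPM in normoxia and from 4.57 through 6.59 to 15.05 TPM after IH. The change was 0.51 ± 0.10 (adjusted p = 2.35e-05, limma) but differed between replicate numbers, at 0.92, 0.56 and 0.06. The IH libraries of replicate 3 therefore sat close to normoxia, and those of replicates 1 and 2 spread upward. Without replicate 1 the change was 0.31 (adjusted p = 0.0239, limma).

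Sirt5, the mitochondrial desuccinylase, ran from 11.8 through 15.2 to 17.6 TPM in normoxia and from 15.2 through 24.7 to 57.8 TPM after IH. Its change was 0.44 ± 0.08 (adjusted p = 6.01e-06, limma), with 0.71, 0.60 and 0.01 in replicates 1, 2 and 3. Sirt3, the main mitochondrial deacetylase, ran from 12.9 through 14.7 to 16.7 TPM in normoxia and from 16.6 through 20.7 to 30.1 TPM after IH, so the groups touched only at their edges. Its change was 0.25 ± 0.04 (adjusted p = 2.64e-06, limma), and 0.37, 0.27 and 0.12 within the replicates.

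**Figure D3:**
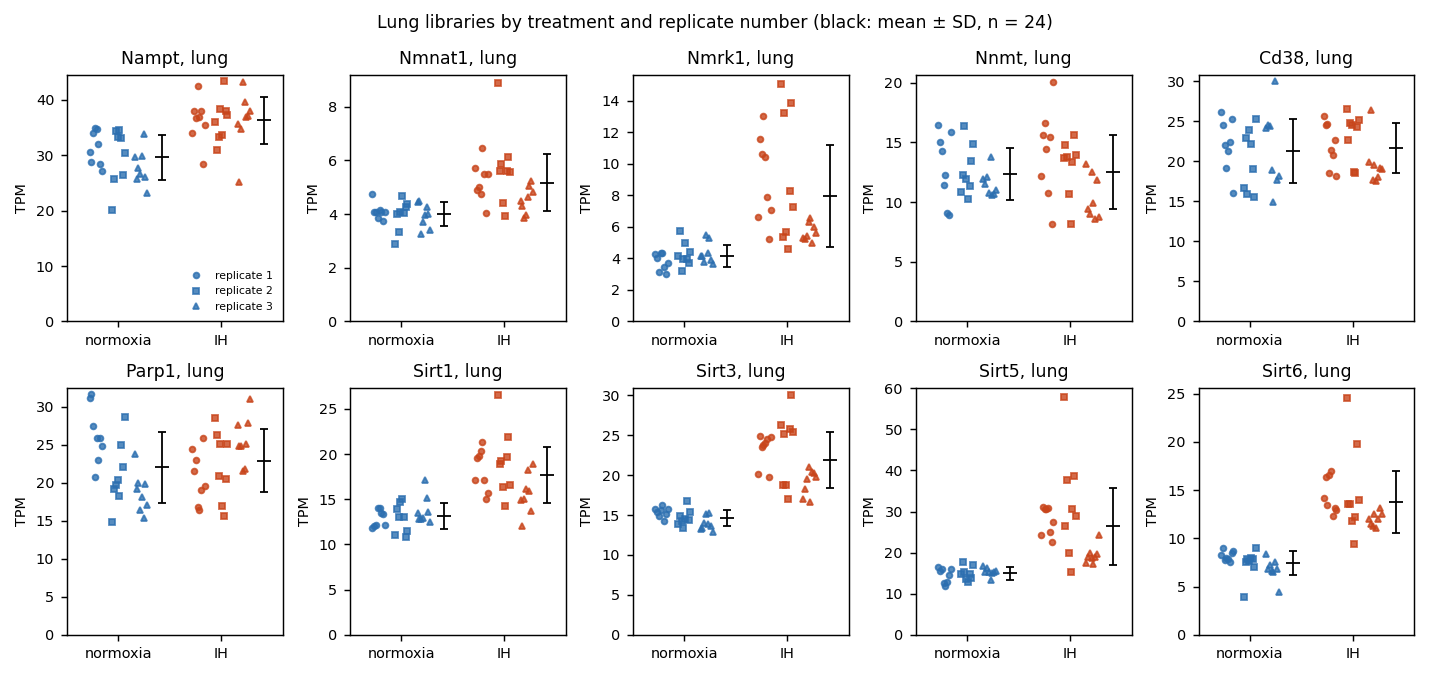
TPM of the 10 genes in every lung library, by treatment; symbols give the replicate number and black bars the mean ± SD of 24 libraries. The IH libraries of Sirt6 all lie above those of normoxia, and the replicate 3 triangles of Nmrk1 and Sirt5 after IH lie near the normoxia points.

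Nnmt, Cd38 and Parp1 fell in the lung on the scaled values, by 0.29, 0.27 and 0.23 on the log2 scale (adjusted p = 0.000877, 0.000219 and 0.00178, limma). Their TPM hardly moved: the means were 12.4 and 12.5 TPM for Nnmt, 21.3 and 21.6 for Cd38, and 22.0 and 22.9 for Parp1 in normoxia and IH. On TPM as deposited the changes were 0.00, 0.03 and 0.06, and none passed. The scaling moved the median of all lung genes by 0.28 on the log2 scale, so these falls are relative to that median. Parp1 also differed between replicates, at -0.54, -0.28 and 0.12, and without replicate 1 its change was -0.09 (adjusted p = 0.328, limma).

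The remaining lung members, Nampt, Nmnat1 and Sirt1, did not pass on the scaled values (changes of -0.01, 0.05 and 0.10, adjusted p = 0.912, 0.382 and 0.0715, limma). On TPM as deposited their changes were 0.29, 0.32 and 0.40 and passed. The median change over the 10 genes in the lung was 0.075, beside -0.08 for all genes tested.

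Libraries of the lung also differed between treatments in the number of genes above 0 TPM, from 21746 to 25400 in normoxia and from 23622 to 28284 after IH. With that number as a term in the fit, the change of Sirt6 was 0.40 (adjusted p = 0.000183, limma), while those of Nmrk1 and Sirt5 turned to -0.19 and -0.14 and did not pass (adjusted p = 0.105 and 0.106). The change of Sirt3 came to 0.03 (adjusted p = 0.692) and that of Parp1 turned to 0.04. The lung markers Sftpc, Sftpb, Scgb1a1 and Ager, all detected, summed to 133100 to 261800 TPM in normoxia and 33320 to 201000 TPM after IH. Endothelial markers (Pecam1, Cdh5, Kdr, Tek) had medians of 899.9 and 782.5 TPM. The part of either in these changes was not tested.

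In the heart, Nmrk1 and Sirt6 fell. Nmrk1 ran from 2.02 through 2.90 to 5.53 TPM in normoxia and from 2.06 through 2.49 to 3.91 TPM after IH. The change was -0.32 ± 0.05 (adjusted p = 8.70e-06, limma), lower at 8 of 8 time points on the scaled log2 values but higher at 1 of 8 in TPM, and -0.35, -0.49 and -0.11 within replicates 1, 2 and 3. It held on TPM as deposited (-0.21, adjusted p = 0.0202).

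Sirt6 in the heart changed by -0.22 ± 0.06 (adjusted p = 0.00326, limma), from a mean of 3.88 to 3.34 TPM. It did not pass on TPM as deposited (-0.12, adjusted p = 0.401) or with the number of detected genes as a term (-0.06, adjusted p = 0.79). That number ran from 22988 to 28331 in normoxia and from 20316 to 22793 after IH. Fibroblast markers (Col1a1, Pdgfra, Dcn, Lum) moved from a median of 432 to 594 TPM and endothelial markers from 147.7 to 226 TPM, and their part was not tested. The scaling moved the median of all heart genes by 0.11 on the log2 scale, and on TPM as deposited Cd38 (0.29), Nampt (0.27), Parp1 (0.27) and Sirt3 (0.19) passed as higher.

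In the kidney, Nnmt rose and Sirt3 fell. Nnmt ran from 2.44 through 4.06 to 6.97 TPM in normoxia and from 2.70 through 5.27 to 9.78 TPM after IH, a change of 0.40 ± 0.10 (adjusted p = 0.00472, limma) that was positive in each replicate number (0.23, 0.74 and 0.22) but did not pass without replicate 2 (0.22, adjusted p = 0.142). Sirt3 moved from 84.9 ± 13.3 to 74.3 ± 11.8 TPM, a change of -0.15 ± 0.05 (adjusted p = 0.0274, limma), with -0.13, -0.02 and -0.29 within the replicates. It did not pass on TPM as deposited (adjusted p = 0.0798), without replicate 1 (adjusted p = 0.0758) or without replicate 3 (adjusted p = 0.413), nor when the time point 1:30, 13:30, 16:30 or 22:30 was left out (adjusted p from 0.0521 to 0.0752).

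In the liver, Cd38 rose and Sirt5 fell. Cd38 ran from 2.57 through 3.48 to 4.97 TPM in normoxia and from 3.01 through 4.06 to 6.89 TPM after IH, higher at 8 of 8 time points on the scaled log2 values and at 6 of 8 in TPM (0.26 ± 0.07, adjusted p = 0.00538, limma). On TPM as deposited the change did not pass (0.14, adjusted p = 0.148). Macrophage markers (Cd68, Adgre1, Csf1r, Lyz2) moved beside it, from a median of 67.7 to 93.1 TPM, and their part was not tested. Sirt5 ran from 8.99 through 11.95 to 14.8 TPM in normoxia and from 4.51 through 9.64 to 15.9 TPM after IH (-0.23 ± 0.07, adjusted p = 0.00984, limma). In both genes replicates 1 and 2 carried the change: 0.42, 0.43 and -0.06 for Cd38, and -0.31, -0.44 and 0.04 for Sirt5. Neither passed without replicate 1 (adjusted p = 0.278 and 0.215) or without replicate 2 (0.277 and 0.414).

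Nnmt in the liver had the highest fitted change of the 60 comparisons and did not pass with every library in the fit. It ran from 64.1 through 112 to 306 TPM in normoxia and from 9.07 through 169 to 380 TPM after IH, a change of 0.56 ± 0.22 (adjusted p = 0.0621, limma), with 0.67, 0.27 and 0.73 within the replicates. The 9.07 TPM came from the library at 13:30 whose markers went against its label. Without it the change was 0.69 ± 0.18 (adjusted p = 0.00378, limma) and passed the 1.5-fold threshold as well. Sirt3 in the liver, at 11.6 TPM in that library, passed the adjusted p but not 1.5-fold without it (0.31, adjusted p = 0.00223). With it the change of Sirt3 was 0.23 (adjusted p = 0.12). The fitted difference of Parp1 in the liver was -0.29 ± 0.11 (adjusted p = 0.0529) with it and -0.30 (adjusted p = 0.0427) without it. Kidney markers summed to a median of 3.33 TPM in normoxia and 82.0 TPM after IH in the liver libraries, and their part was not tested.

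**Figure D4:**
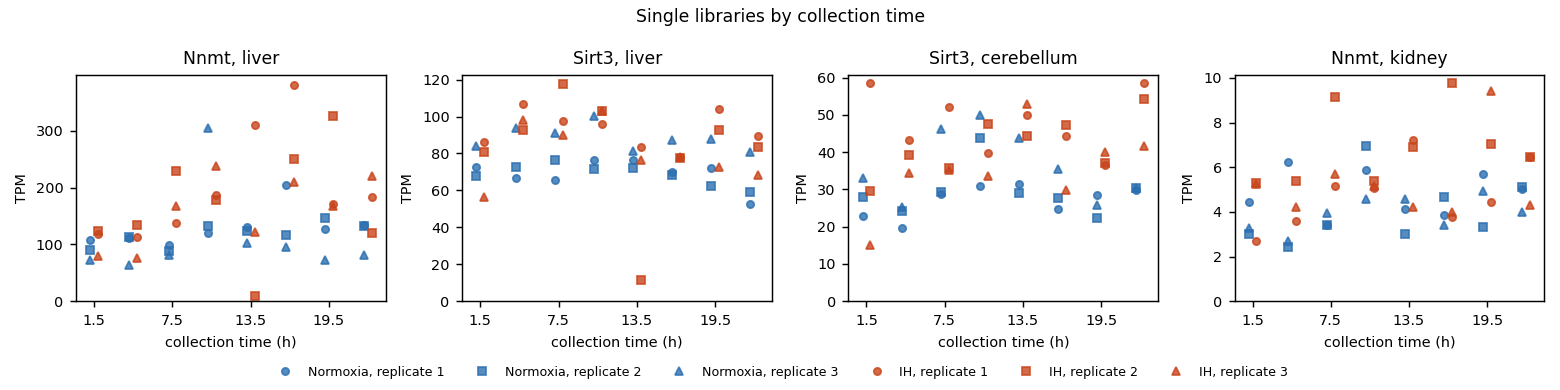
TPM in single libraries by collection time, with colour for treatment and symbol for replicate number, for Nnmt and Sirt3 in the liver, Sirt3 in the cerebellum and Nnmt in the kidney. One liver IH library at 13:30 lies at 9.07 TPM for Nnmt and 11.6 TPM for Sirt3, below the other libraries of its group.

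In the cerebellum, Sirt3 rose. It ran from 19.7 through 29.2 to 49.99 TPM in normoxia and from 15.2 through 40.9 to 58.7 TPM after IH, with wide overlap. The change was 0.42 ± 0.07 (adjusted p = 6.28e-05, limma), higher at 8 of 8 time points on the scaled log2 values and at 7 of 8 in TPM, and 0.76, 0.44 and 0.07 within replicates 1, 2 and 3. It did not pass without replicate 1 (0.25, adjusted p = 0.143) or without replicate 2 (0.42, adjusted p = 0.0562). Heart markers were present in many cerebellum libraries, with medians of 566 TPM in normoxia and 324 TPM after IH, and their part was not tested. The lowest IH value, 15.2 TPM, was that of the library at 1:30 with heart markers. Without that library Nampt in the cerebellum fell, by 0.24 (adjusted p = 0.00433), against -0.19 (adjusted p = 0.0701) with it.

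In muscle no member passed (0 of 10 by limma, and 0 of 10 at an unadjusted p under 0.05), and the changes lay between -0.07 for Parp1 and 0.14 for Nnmt. On TPM as deposited, Sirt3 (0.15, adjusted p = 0.0426) and Sirt5 (0.14, adjusted p = 0.0287) passed.

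Whether the response to IH differed between tissues was tested with a treatment-by-tissue term in limma over the libraries of all 6 tissues. For 8 of the 10 genes the difference passed, against 88.3% of the genes tested. The organs came from the same mice, and the fit takes their libraries as independent; with a block of treatment, time point and replicate number, chosen after seeing the data, 9 of the 10 passed. In the fit without that block the exceptions were Nampt (adjusted p = 0.106) and Nmnat1 (adjusted p = 0.873, limma). Their changes ran from -0.19 to 0.17 and from -0.04 to 0.05 across tissues. The test of a difference between tissues does not itself give directions. In the main fits of each tissue, Sirt3 rose in the lung and cerebellum and fell in the kidney. Nmrk1 rose in the lung and fell in the heart, and so did Sirt6. These changes carry the limits given above for each tissue.

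The 24-hour rhythm of each gene was tested with cosine and sine terms of a 24-hour period on the scaled log2 values, separately in each tissue and treatment (limma F test, Benjamini-Hochberg over all genes reaching 1 TPM). Nampt was rhythmic in the kidney, liver, lung and muscle in both treatments. The members passing in normoxia were 3 of 10 in the kidney (background 18.6% of genes), 2 in the liver (14.4%), 2 in the lung (6.8%), 1 in muscle (5.38%), and 0 in the heart (0.558%) and cerebellum (0%). After IH they were 2 in the kidney (5.38%), 1 in the liver (2.33%), 1 in the lung (3.37%), 1 in muscle (7.43%), and 0 in the heart (3.45%) and cerebellum (0.00936%).

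**Figure D5:**
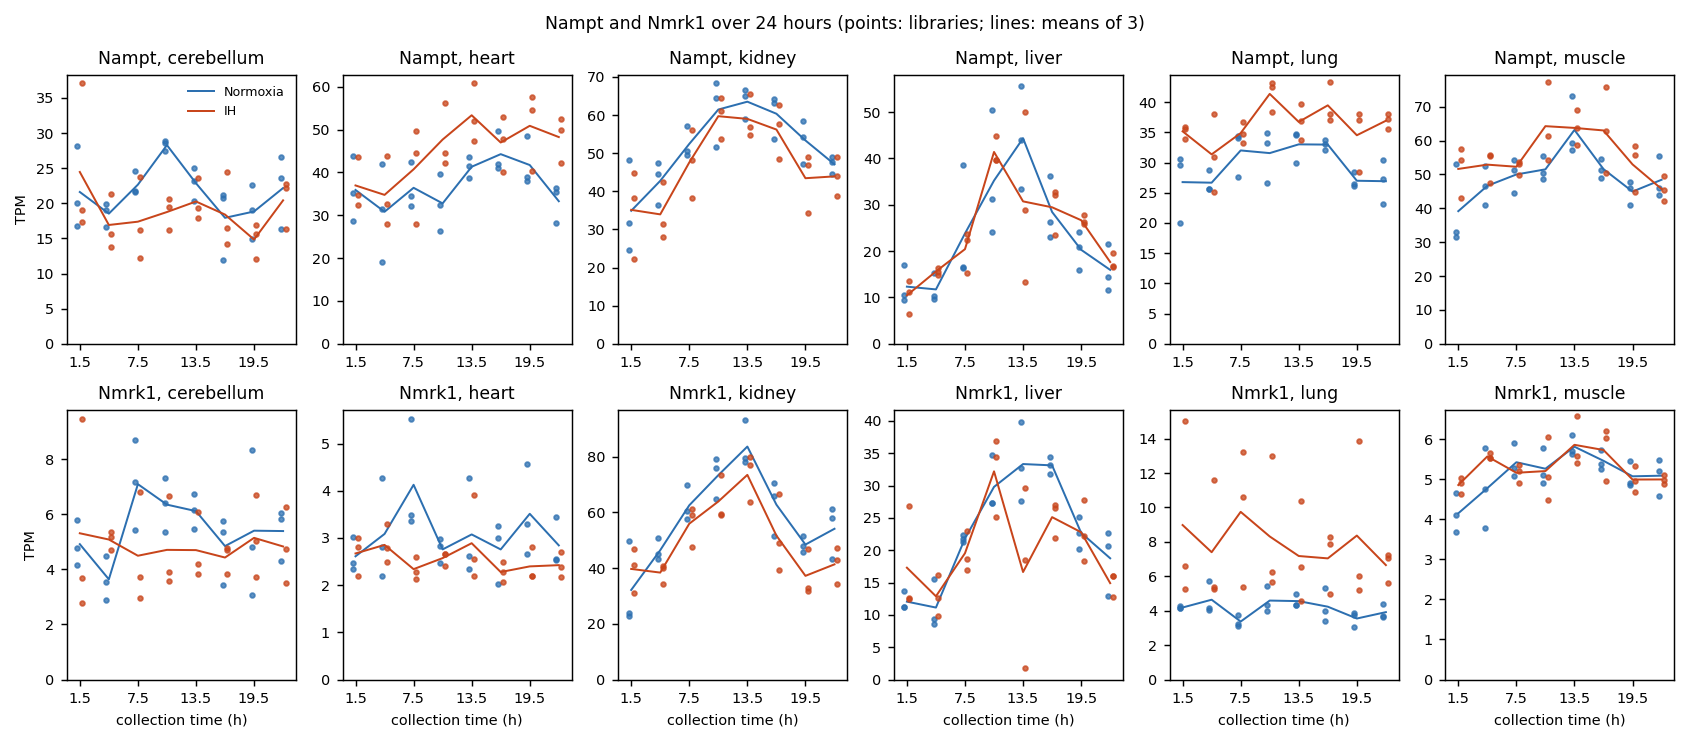
TPM of Nampt (upper row) and Nmrk1 (lower row) against collection time in the 6 tissues; points are libraries, lines join the means of the 3 libraries at each time, and colours give the treatment. In the liver the Nampt lines climb from 12.3 and 10.46 TPM at 1:30 to 44.3 TPM at 13:30 in normoxia and 41.4 TPM at 10:30 after IH.

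In the liver, mean Nampt in normoxia was 12.3 ± 4.12 TPM at 1:30, 11.7 ± 3.12 at 4:30, 23.8 ± 12.8 at 7:30, 35.2 ± 13.6 at 10:30, 44.3 ± 11.1 at 13:30, 28.4 ± 6.86 at 16:30, 20.3 ± 4.12 at 19:30 and 16.0 ± 5.12 at 22:30 (SD, n = 3). After IH it was 10.46 ± 3.59, 15.6 ± 0.741, 20.4 ± 4.60, 41.4 ± 2.98, 30.7 ± 18.4, 29.5 ± 5.13, 26.7 ± 0.966 and 17.7 ± 1.66 TPM at the same times. Both series were lowest in the early hours and highest between 10:30 and 13:30. The fitted peak lay at 13.51 ± 0.38 h in normoxia and 13.6 ± 0.43 h after IH (SE), with peak-to-trough ratios of 3.25 and 3.50 (adjusted p = 6.95e-07 and 1.87e-05, limma). Of the 3 IH libraries at 13:30, that of replicate 2, with heart markers, held 13.3 TPM.

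In the kidney, Nampt peaked at 13.7 ± 0.47 h in normoxia and 13.4 ± 0.36 h after IH, with smaller ratios of 1.59 and 1.69 (adjusted p = 3.69e-05 and 4.45e-07, limma). Mean levels rose from 34.9 ± 12.2 TPM at 1:30 to 63.5 ± 3.97 TPM at 13:30 in normoxia. In muscle the peaks lay at 12.6 h in both treatments, with ratios of 1.29 and 1.37, and in the lung at 12.6 and 13.49 h, with ratios of 1.26 and 1.27. The rhythms in lung and muscle are the less secure ones: on TPM as deposited none of the 4 passed (adjusted p from 0.0621 to 0.4). In the heart Nampt did not pass (adjusted p = 0.37 and 0.0904), with fitted peaks at 16.1 and 15.6 h. In the cerebellum it did not pass either (adjusted p = 0.804 and 0.98), and there Nr1d1, a core clock gene, did not pass (adjusted p = 0.319 in normoxia and 0.588 after IH, limma).

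Relative to its mean level, the rhythm of Nampt was larger in the liver than elsewhere in normoxia. In a test chosen after these values were seen, the cosine and sine terms of the liver differed from those of the kidney (adjusted p = 0.000867, background 8.35% of genes), lung (2.75e-06, 7.85%), muscle (5.02e-06, 7.71%), heart (0.000674, 3.04%) and cerebellum (1.67e-06, 6.91%) by limma. That test takes amplitude and peak time together. The fitted log2 amplitude was 0.85 ± 0.08 in the liver and 0.33 ± 0.04 in the kidney. On linear TPM the amplitudes lay closer, at 14.4 ± 2.4 TPM in the liver and 12.8 ± 1.82 TPM in the kidney (SE).

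Against the clock genes, the peak of Nampt came after that of Nr1d1, a repressor of Arntl, and before that of Arntl. In the normoxia liver Arntl peaked at 22.1 h and Nr1d1 at 7.45 h, and in the kidney at 21.9 and 6.41 h. The 5 genes whose centred time courses over 48 normoxia means (8 times in 6 tissues) were most like Nampt were Alas1 (Pearson r = 0.919), the first enzyme of heme synthesis, Riok2 (0.87), Ivns1abp (0.86), St3gal5 (0.859) and Usp2 (0.84). Nmrk1 had r = 0.797 and Arntl r = -0.534. These points share tissues and libraries, and the correlations are descriptions.

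Nmrk1, at the head of the riboside route, followed a similar course in the kidney and liver. In the kidney its mean in normoxia rose from 32.2 ± 15.2 TPM at 1:30 to 83.6 ± 8.29 at 13:30 and returned to 48.4 ± 2.76 at 19:30 (SD, n = 3). After IH it rose from 39.7 ± 7.97 to 73.5 ± 8.60 TPM at 13:30 and returned to 37.2 ± 8.49. The fitted peaks lay at 12.7 ± 0.52 h and 11.5 ± 0.52 h, with ratios of 1.95 and 1.83 (adjusted p = 0.000127 and 0.000124, limma).

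In the normoxia liver Nmrk1 rose from 11.1 ± 3.79 TPM at 4:30 to 33.3 ± 6.13 TPM at 13:30, with a fitted peak at 14.4 ± 0.40 h and a ratio of 2.85 (adjusted p = 1.25e-06, limma). After IH the rhythm did not pass with every library in the fit (adjusted p = 0.768). The 3 IH libraries at 13:30 held 18.5, 1.83 and 29.6 TPM, and the lowest was the library with heart markers. Without it the rhythm passed after IH as well (adjusted p = 0.00244), with a peak at 13.6 h. The apparent loss of the Nmrk1 rhythm in the IH liver therefore rested on 1 library, and the difference between treatments did not pass in either tissue (unadjusted p = 0.224 in the liver and 0.25 in the kidney, limma).

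Of the other members, Sirt3 was rhythmic in the normoxia kidney, with a peak at 13.3 ± 0.96 h and a ratio of 1.24 (adjusted p = 0.022, limma), and had an adjusted p of 0.0535 after IH. The normoxia call was lost under 6 of 11 alternatives. Sirt5 was rhythmic in the normoxia lung, peaking at 1.98 ± 0.79 h with a ratio of 1.26 (adjusted p = 0.0112, limma). It did not pass without replicate 1 (adjusted p = 0.0601) or without replicate 2 (adjusted p = 0.25). Nnmt in the IH liver passed without the library with heart markers (adjusted p = 0.0278, peak at 14.9 h). Nmnat1, Cd38, Parp1, Sirt1 and Sirt6 passed in no tissue or treatment. Sirt1 and Parp1, whose promoter windows hold E-boxes, were among them, and a relation between these motifs and rhythm was not tested.

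The difference in rhythm between IH and normoxia, tested as the interaction of treatment with the cosine and sine terms (limma), passed for no member in any tissue. At an unadjusted p under 0.05 there was 1 of the 60 comparisons, Nnmt in muscle (p = 0.0177), beside 4.62% of all genes in muscle and 0.691% to 4.94% across the 6 tissues. The background was also 0% of genes in the cerebellum, 0% in the heart, 0% in the kidney, 0% in the liver, 0% in the lung and 0% in muscle.

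The remaining NAD genes were followed through a list of 34, of which 23 to 29 were tested in a tissue. After IH, 16 of 29 passed in the lung (13 higher, 3 lower) and 13 of 23 in the heart (7 higher, 6 lower). The kidney had 8 of 28 (1 higher, 7 lower), the liver 5 of 28 (0 higher, 5 lower), the cerebellum 3 of 25 (2 higher, 1 lower) and muscle 2 of 24 (2 higher, 0 lower). The shares of all genes that passed were 70.4%, 45.2%, 19.8%, 24.2%, 15% and 10.4% in the same order, and of the lung calls over all genes 41.1% were higher. The list's median change was 0.061 in the lung and -0.154 in the liver, beside -0.08 and -0.01 for all genes tested. Those past 1.5-fold were Sirt4, a mitochondrial sirtuin (0.88 ± 0.10), Slc12a8, described as a transporter of nicotinamide mononucleotide (0.84 ± 0.11), and Afmid, a kynurenine-pathway enzyme (0.80 ± 0.09), all higher in the lung, and Aox1, an aldehyde oxidase (-0.64 ± 0.13), lower in the liver. Each kept its sign within the 3 replicate numbers, although replicate 3 gave the smallest change, at 0.38, 0.32, 0.49 and -0.23. The liver counts, the liver median and the change of Aox1 come from a fit that held the IH library with heart markers. The listed genes were not tested without that library.

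In normoxia, Nt5e, the ecto-nucleotidase that makes nicotinamide riboside from its mononucleotide, was rhythmic in the kidney, liver and lung, as was Slc25a47, a mitochondrial carrier. Nt5e peaked at 21.3 h in the kidney and 23.2 h in the liver, away from Nampt, and at 9.11 h in the lung. Slc25a47 peaked at 1.08, 8.78 and 15.1 h in the kidney, liver and lung. In the liver, 9 of the 31 listed genes passed in normoxia and 2 after IH, and in the kidney 6 of 30 and 3, beside the lower backgrounds after IH given above. The liver IH count and its background come from a fit that held the library with heart markers. The listed genes were not tested without that library. No gene passed the test of a difference in rhythm in any tissue, so these counts do not show a loss of rhythm.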

How the data were processed

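RNA from 6 tissues of mice kept in normoxia or IH was sequenced, with 3 libraries per tissue, treatment and time point. The authors quantified transcripts with kallisto against an mm10 annotation and deposited TPM per gene; per the submitters' processing notes, reads were checked with FastQC 0.11.3. TPM keeps no depth, so no count test was run. Values were scaled by the median of ratios, logged as log2(TPM + 0.5) and tested with limma 3.58.1 (limma-trend) in R 4.3.3, with Benjamini-Hochberg adjustment over genes whose tissue mean reached 1 TPM (for rhythms, whose highest value did) and a threshold of 0.05. Scaling was within a tissue for treatment and rhythm, and over all normoxia libraries for tissue levels. The fits were tested on simulated data. The 6 organs were collected from the same mice, 3 per time point and treatment, but the labels do not tie libraries of different tissues to a mouse, so comparisons between tissues treat them as independent. Within a tissue, p-values set a difference in means against its standard error, which rests on the spread between libraries. The members and lists were chosen with earlier results of these data known. Named genes were the 10 members, listed NAD genes past 0.05 and 1.5-fold in a tissue or rhythmic in at least 3 tissues in normoxia, and the 5 genes most like Nampt. Alternatives included TPM as deposited, other pseudocounts and minimums, a term for genes detected, and leaving out replicates, time points or the 2 libraries whose markers went against their labels. Their results were taken for the members only.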

Additional observations from a re-analysis of the deposited data

Results flagged for a closer look

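For 8 genes the response to IH differed between tissues in a test of the difference itself (limma, treatment by tissue). The adjusted p was 3.59e-09 for Sirt5, 8.95e-07 for Sirt3, 1.77e-06 for Sirt6, 2.42e-06 for Cd38, 1.22e-05 for Nmrk1, 0.000565 for Parp1, 0.00175 for Sirt1 and 0.00201 for Nnmt. Of all genes tested, 88.3% passed the same test. The difference did not pass for Nnmt on TPM as deposited (adjusted p = 0.097), for Sirt1 with the number of detected genes as a term (0.0684) or without replicate 2 (0.303), or for Parp1 without replicate 1 (0.847).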

How the results depend on the processing

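Of the 60 comparisons of mean expression, 14 passed, 9 to 20 when 1 replicate number was left out (9 without replicate 1) and 17 with a replicate block of time point and number. With a 1.5-fold change as well, 0 passed, against 3 on TPM as deposited and 1 with the genes-detected term. The count was 1 without the 2 libraries (Nnmt in the liver), 1 without 13:30 and 0 to 3 without 1 replicate number. Of the rhythms 13 passed, 8 on TPM as deposited, 8 on linear TPM, 8 to 10 without 1 replicate number and 16 with the replicate block. The lung changes of Cd38 and Parp1 turned to 0.032 and 0.065 on TPM as deposited. With the genes-detected term the lung changes of Nmrk1, Sirt5 and Parp1 turned to -0.19, -0.14 and 0.036. The cause was not tested. Differences in rhythm stayed at 0, differences between tissues in the response were 9 with a replicate block of treatment, time point and number (added after seeing the data) and 7 to 9 and pairs of tissues 128 to 129 without 1 replicate number. Libraries with the same number correlated from -0.55 to 0.571 in their deviations, so the numbers were not taken as pairs. The depth of each single library cannot be read from TPM, which limits what can be said of low values such as Nnmt in the cerebellum.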
